A study of Homo sapiens with 18 samples.

Results

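The 9 genes described here encode enzymes that make or use glutamine, glutamate, aspartate and asparagine, namely ASNS, GLS2, GLUL, GLUD1, GOT1, GOT2, GPT2, ASS1 and ASL. They were chosen by name out of 19974 protein-coding genes (autosomes and X), and every peak that touched a gene record of RefSeq (GRCh38.p14) or the 10 kb either side of it was taken. ChIP-seq, in which DNA bound by a protein or histone mark is pulled down and sequenced, had been run on MDA-MB-231. This established cell line derives from breast cancer without hormone receptors or HER2 amplification. The medium, DMEM with serum, held added glutamine, nonessential amino acids and pyruvate. Parental cells gave the lists for KDM2B, MYC, H3K4me3, H2AK119ub and H3K27me3, and a separate stock of MDA-MB-231 cells carrying an empty vector gave the H3K27ac list, so that H3K27ac is set beside the other targets across 2 cell stocks. The study had 18 libraries in 9 groups of 2, with inputs of both stocks. Each of the 6 deposited lists gives a single set of peaks for its target, which leaves every value without replicate error, and the labels do not say whether libraries came from separate cultures. ATF4 was not analysed here.

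Glutamine carries nitrogen as well as carbon in proliferating cells. Glutaminases release glutamate from it, glutamate dehydrogenase and the transaminases pass glutamate on to the tricarboxylic acid cycle, to aspartate and to alanine, and asparagine synthetase joins aspartate with the nitrogen of glutamine. Argininosuccinate synthase and lyase consume aspartate to build arginine. KDM2B binds unmethylated CpG DNA and belongs to ncPRC1.1, a Polycomb complex that ubiquitinates H2AK119. MYC activates many genes of glutamine use, and ATF4 induces ASNS and other genes when amino acids run short. H3K4me3 marks promoters in use, H3K27ac marks active promoters and enhancers, and H3K27me3 is written by the Polycomb complex PRC2.

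The fold of a peak is the enrichment at its summit as the authors' peak caller gave it, and it ranks peaks within its own list only. Read depth is unknown, since the lists hold no counts, and no interval can be given. The lists ranged from 20018 peaks for KDM2B to 306484 for H3K27me3, and a peak entered a list at a q-value of at most 0.05. In the same lists, VIM and CD44, which are high in mesenchymal breast cancer cells, had H3K27ac folds of 75.9 and 61.5 at their starts, whereas the hormone receptor genes ESR1 and PGR had no H3K27ac there.

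All 9 enzyme genes had KDM2B, MYC, H3K4me3 and H3K27ac in their windows. Over all protein-coding genes, KDM2B was found in 59.4% of windows, MYC in 78.7%, H3K4me3 in 82.6% and H3K27ac in 78.2%, and the combination of these 4 in 57.3%. H2AK119ub was present at 8 of the 9 genes, all except GOT2, against 68.0% of all genes. H3K27me3 was present at 7, all except GLUD1 and ASL, against 50.1% of all genes. At GPT2 this was 1 peak at the edge, covering 0.0149% of the window. GOT2, GLUD1 and ASL were the 3 genes that lacked at least 1 of the 6 targets, as did 78.0% of all genes, and 4392 genes had all 6. With q under 1e-5, H2AK119ub was left at 4 of the 9 and H3K27me3 at 3. The shares of all genes under that limit are not given here, so these counts have no background beside them. The windows of the 9 genes were 33693 to 96765 bp long with a median of 53755 bp, and those of all genes had a median of 44170.5 bp, so a count by window also depends on length.

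The 1 kb either side of a start lies inside the window, so a count at starts cannot exceed the count by window. Over all genes the share was lower at starts for every target. A start is the position where RefSeq begins the transcript, and 8 of the 9 genes had at least 1. For GPT2 both ends of the record were used. Within 1 kb of a start, KDM2B, MYC and H3K4me3 were present at all 9 genes, against 47.8%, 64.1% and 68.9% of all genes. H3K27ac was there at 8, all except GLS2, against 63.4% of all genes. H2AK119ub was there at 3 of 9, GLS2, GLUL and ASS1, near the share of all genes (38.2%). H3K27me3 was there at 0 of 9 (all genes 23.7%). Other Polycomb peaks of these windows lay farther inside the records or in the flanks.

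**Figure D1:**
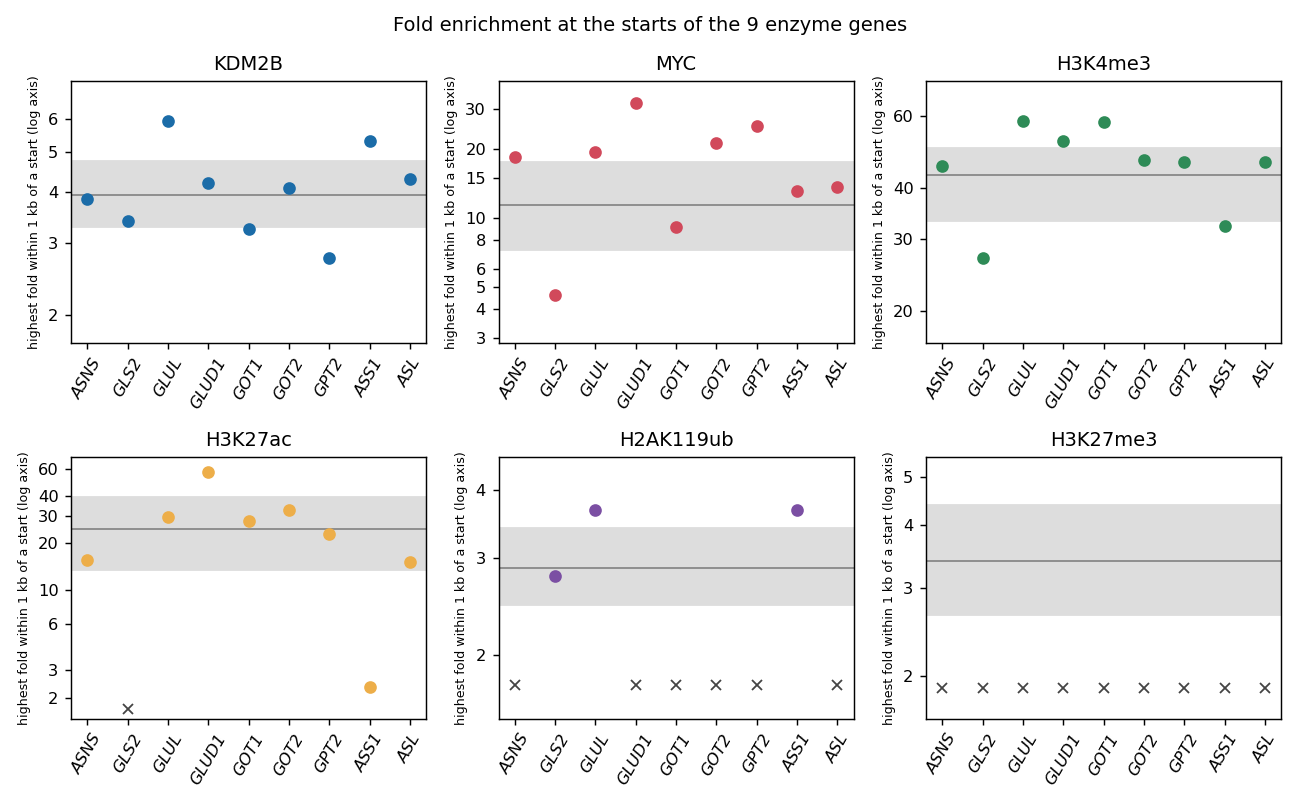
Highest fold of each target within 1 kb of a start (log axis) for the 9 enzyme genes, 1 point per gene, with a cross where the list had no peak. The grey band and line give the quartiles and median of all genes with that target at a start; GLUL and ASS1 lie above the band for KDM2B, 5 genes lie above it for MYC, and ASS1 lies far below it for H3K27ac.

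The median KDM2B fold at the starts was 4.08 over the 9 genes and 3.93 over the 9547 genes with KDM2B at a start. The 9 genes ran from 2.76 at GPT2 to 5.94 at GLUL, and 5 of them were at or above the median of all genes. MYC had a median of 18.6 over the 9 genes and 11.4 over 12809 genes, with 7 of the 9 at or above that value. The median was 46.2 against 42.9 for H3K4me3. For H3K27ac it was 25.4 over 8 genes against 24.5 over 12663.

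Asparagine synthesis is carried out by ASNS (chromosome 7, 97851677 to 97928441 in hg38, minus strand), a classic target of ATF4. Its RefSeq starts, at 97872408 and 97872165, lie 56033 and 56276 bp inside the upper end of the record. Within 1 kb of these starts the KDM2B fold was 3.83 and the MYC fold 18.6. As high a KDM2B fold or higher was found at 54.3% of genes with KDM2B at a start, and as high a MYC fold or higher at 22.3% of genes with MYC. KDM2B was thus near the middle of its genes, whereas MYC was well above the middle. The KDM2B summit at 97872272 lay between both starts, 71 bp from the MYC summit at 97872343, and the H3K4me3 and H3K27ac summits, with folds of 45.2 and 15.6, lay at 97872320 and 97872324. The promoter upstream of 97872408 is shown because it holds the only match among the 11 promoters of these genes to the ATF4 response element in the gene's own direction. Capitals mark TGATGNAA, the C/EBP-ATF element searched on both strands.

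ASNS, chr7:97872359-97872658, minus strand: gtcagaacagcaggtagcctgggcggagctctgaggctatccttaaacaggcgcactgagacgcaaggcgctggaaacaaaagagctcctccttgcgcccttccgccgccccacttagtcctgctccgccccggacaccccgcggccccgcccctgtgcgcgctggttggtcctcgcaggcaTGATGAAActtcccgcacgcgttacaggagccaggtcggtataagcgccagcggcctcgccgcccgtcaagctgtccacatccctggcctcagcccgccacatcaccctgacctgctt

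The ASNS element begins 68 bp upstream of the start, at 97872469 to 97872476. It lay inside the MYC, H3K4me3 and H3K27ac peaks, 126 bp from the MYC summit, and outside the KDM2B peak, which ended at 97872396. Of 35116 RefSeq promoters of the same length, 3.62% held a match on either strand. A match is a run of letters and was not shown to be bound.

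A second ASNS site stood at the upper end of the record, 56048 bp from the first by the KDM2B summits, and its marks differed. KDM2B had a fold of 2.86 there and MYC one of 4.23, both lower than at the RefSeq starts, and H3K4me3 had one of 13.6. No H3K27ac peak overlapped the KDM2B peak of this site. Instead it overlapped 2 H2AK119ub peaks, with folds of 3.42 and 3.23, and 1 H3K27me3 peak with a fold of 4.34. Of the peaks in the ASNS window, the nearest H2AK119ub peak was 43039 bp from a RefSeq start and the nearest H3K27me3 peak 28744 bp. The read-through RNA gene CZ1P-ASNS covers both sites, and the upper site was not assigned to either record.

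**Figure D2:**
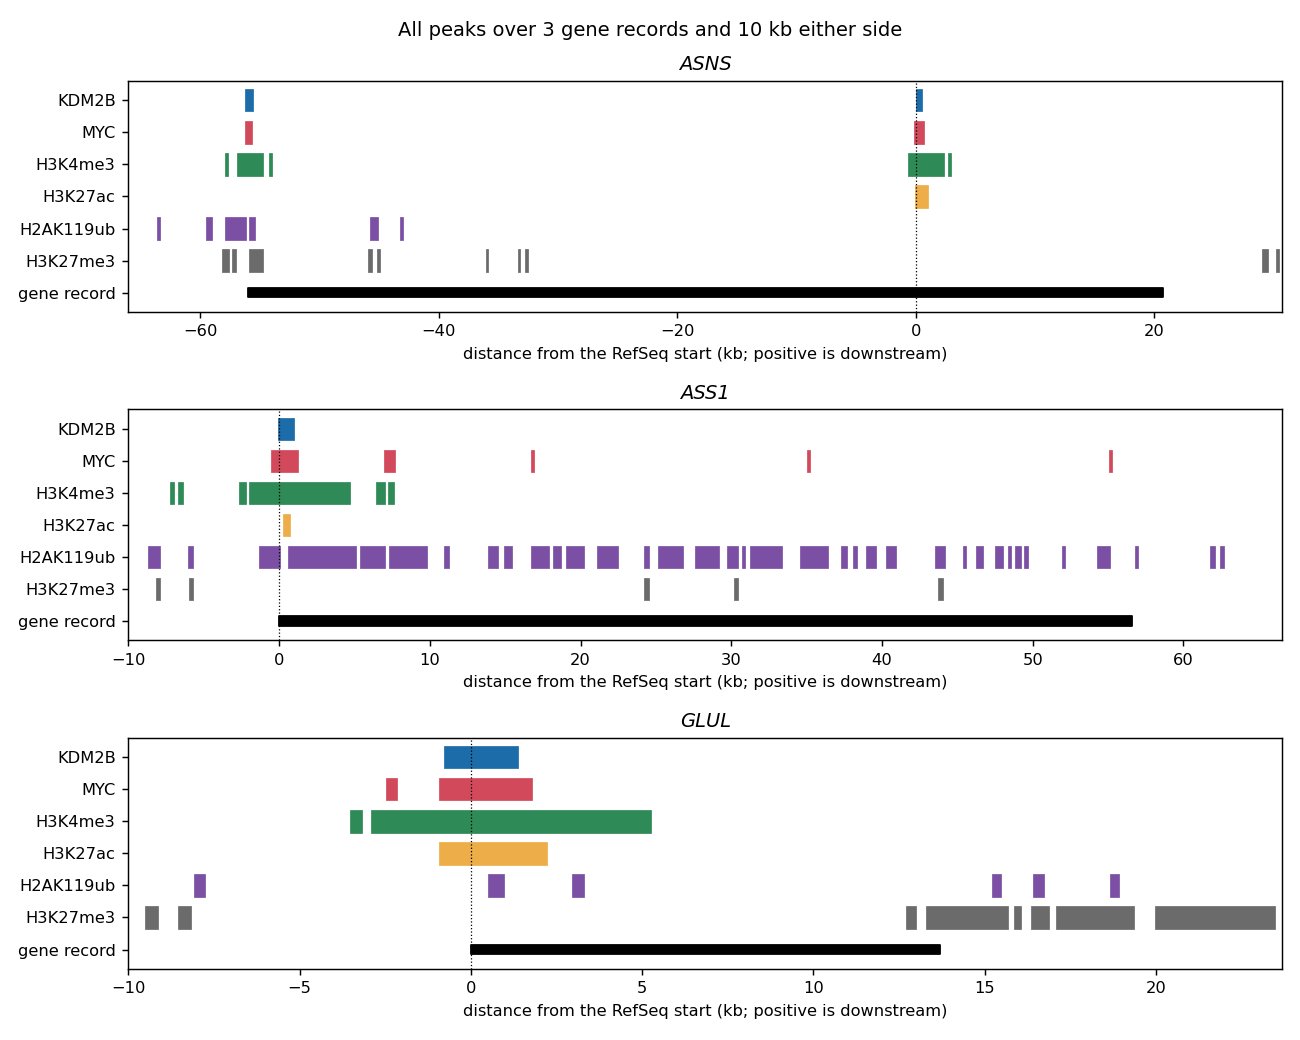
Deposited peaks of the 6 targets over the records of ASNS, ASS1 and GLUL and 10 kb either side, by distance from the RefSeq start in kb (dotted line; black bar, gene record). H2AK119ub and H3K27me3 lie at the upstream site of ASNS and not at its start, H2AK119ub runs along ASS1, and H3K27me3 begins near the far end of GLUL.

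Glutamine synthesis and breakdown were represented by GLUL and GLS2, which had peaks of all 6 targets in their windows but differed in the folds at their starts. GLUL, the glutamine synthetase gene (chromosome 1, 182378098 to 182391790, minus strand), had the highest KDM2B fold of the 9 genes, 5.94, in a peak of 2152 bp. Only 7.38% of genes with KDM2B at a start had as high a fold, and 1.30% of KDM2B peaks were as wide. The H3K4me3 peak over the start was 8169 bp wide with a fold of 58.4, a width reached by 3.66% of that list. MYC had a fold of 19.4 and H3K27ac one of 29.5, with all 4 summits between 182391565 and 182391639. H2AK119ub of fold 3.67 (−log10 q 8.64) overlapped the KDM2B peak, 65 bp downstream of the inner of the RefSeq starts.

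H3K27me3 at GLUL lay at the other end of the gene. It covered 29.5% of the window, of which 8493 bp were in the 10 kb past the end of transcription, 720 bp in the record and 737 bp upstream, near TEDDM1. The nearest H3K27me3 peak was 8170 bp from a start, and folds were 2.03 to 3.72. As much H3K27me3 or more was found at 17.9% of all genes.

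GLS2, the glutaminase first described in liver (chromosome 12, 56470952 to 56488161, minus strand), was the 1 gene of the 9 with no H3K27ac at its start. KDM2B stood there in 2 peaks with folds of 3.40 and 3.20, MYC in 2 with folds of 4.60 and 3.53, and H3K4me3 in 1 with a fold of 26.9. The MYC fold was low in its list: 88.9% of genes with MYC at a start had as high a fold or higher, and for H3K4me3 that share was 83.1%. H2AK119ub flanked the start in 2 peaks with folds up to 2.78, and H3K27me3 stood 1445 bp upstream and beyond in 3 peaks with folds up to 2.84. Of the 9468 genes with KDM2B, MYC and H3K4me3 at a start, 3.07% had no H3K27ac there. The highest MYC, H3K4me3 and H3K27ac folds of the GLS2 window, 19.5, 37.9 and 24.4, lay at SPRYD4, a protein-coding gene whose record overlaps that of GLS2 at the far end.

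GLUD1, which encodes mitochondrial glutamate dehydrogenase (chromosome 10, 87050202 to 87094843, minus strand), had the highest MYC and H3K27ac folds of the 9 genes. MYC reached 31.8 in a peak of 3449 bp, and 5.46% of genes with MYC at a start had as high a fold. H3K27ac reached 57.7, a fold matched or passed at 8.62% of genes with that mark. KDM2B stood on either side of the start, with a fold of 4.19 downstream and 2.79 upstream, and the MYC summit was 79 bp from the upstream KDM2B summit and 765 bp from the other. SHLD2, a DNA repair gene, runs the opposite way from this start region and its record overlaps both KDM2B peaks, so these values cannot be assigned to either gene alone. H3K27me3 had no peak at GLUD1, and H2AK119ub had 1 peak of fold 2.48, 13958 bp into the gene.

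The promoters of GLUD1 and GLS2 are shown because they held the most and the fewest CG dinucleotides among the 11 promoters, and KDM2B recognises unmethylated CpG. Capitals mark CG.

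GLUD1, chr10:87094794-87095093, minus strand: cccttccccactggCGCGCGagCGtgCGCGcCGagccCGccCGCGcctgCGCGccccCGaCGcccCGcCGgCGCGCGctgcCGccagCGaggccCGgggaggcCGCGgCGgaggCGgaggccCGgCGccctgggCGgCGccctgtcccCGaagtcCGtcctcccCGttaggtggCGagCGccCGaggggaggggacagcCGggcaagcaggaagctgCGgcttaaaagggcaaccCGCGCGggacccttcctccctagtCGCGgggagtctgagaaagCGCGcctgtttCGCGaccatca
GLS2, chr12:56488112-56488411, minus strand: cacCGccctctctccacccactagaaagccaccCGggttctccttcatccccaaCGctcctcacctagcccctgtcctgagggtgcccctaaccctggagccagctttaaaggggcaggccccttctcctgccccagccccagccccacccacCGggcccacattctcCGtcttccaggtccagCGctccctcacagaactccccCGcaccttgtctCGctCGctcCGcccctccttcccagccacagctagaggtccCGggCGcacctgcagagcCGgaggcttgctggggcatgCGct

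GLUD1 had 47 CG dinucleotides and GLS2 had 14, and the median of all promoters was 14. As many as GLUD1 were found in 2.41% of promoters. The other promoters of the enzyme genes held 21 to 30. A KDM2B peak reached into both promoters, with a fold of 4.19 at GLUD1 and 3.40 at GLS2, and it covered 84.3% of the GLS2 promoter. CG number and KDM2B fold did not follow the same order in these genes, since GLUL and ASS1, with 29 CG or fewer, had the higher folds. Methylation was not measured.

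**Figure D3:**
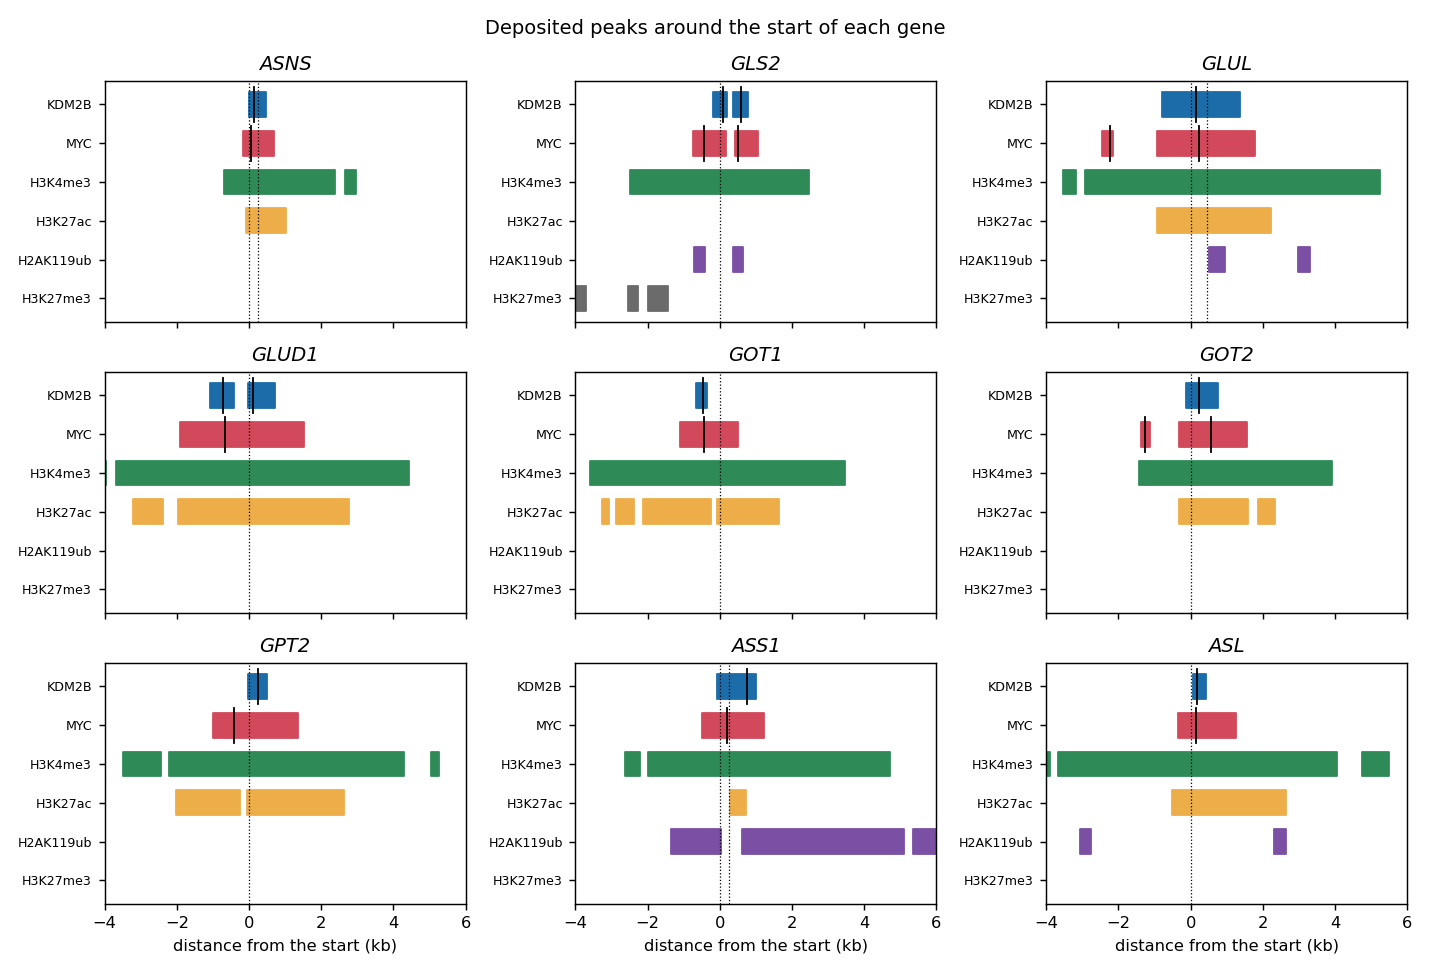
Peaks of the 6 targets by distance in kb from the outermost RefSeq start of each enzyme gene (dotted lines, RefSeq starts; for GPT2, the lower end of the record), with KDM2B and MYC summits as black ticks. KDM2B and MYC overlap within 1 kb of the start in all 9 panels, and H3K27ac is missing from the GLS2 panel.

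The transaminases exchange nitrogen between glutamate and other amino acids. GOT1 (chromosome 10, 99396870 to 99430624, minus strand) exchanges nitrogen between glutamate and aspartate in the cytosol. It had a KDM2B fold of 3.25 at 99430970 to 99431291, which is upstream of the record and inside GOT1-DT, a divergent non-coding RNA gene. Its MYC fold of 9.12 was below the median of all genes with MYC at a start, and 64.1% of them had as high a fold or higher. H3K4me3, with a fold of 58.1, ranked high, as 7.98% of genes reached that value. The KDM2B and MYC summits were 15 bp apart, and H3K27ac stood in 2 peaks of folds 27.7 and 19.1 on either side of the start. The GOT1 promoter is shown as the other promoter with the ATF4 element, in the reverse direction, where TGATGNAA reads TTNCATCA (capitals).

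GOT1, chr10:99430575-99430874, minus strand: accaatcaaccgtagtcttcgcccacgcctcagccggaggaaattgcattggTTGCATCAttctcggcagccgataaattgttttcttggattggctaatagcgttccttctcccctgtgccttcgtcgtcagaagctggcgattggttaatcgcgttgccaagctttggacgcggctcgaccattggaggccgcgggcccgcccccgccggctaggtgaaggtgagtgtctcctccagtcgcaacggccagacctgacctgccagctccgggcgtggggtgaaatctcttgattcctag

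This element lies 198 bp upstream of the start, at 99430815 to 99430822. It was inside the MYC and H3K4me3 peaks, 249 bp from the MYC summit, but between both H3K27ac peaks and outside the KDM2B peak. ATF4 binding at GOT1 and ASNS was not measured in the lists used.

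GOT2, the mitochondrial partner of GOT1 in the malate-aspartate shuttle (chromosome 16, 58707131 to 58734316, minus strand), had a KDM2B fold of 4.08 and a MYC fold of 21.4. The MYC fold was reached by 15.8% of genes and the KDM2B fold by 45.2%. It was the 1 gene of the 9 with no H2AK119ub in its window, and its only H3K27me3 peak, of fold 2.49, was 4145 bp upstream. GPT2, which makes alanine and 2-oxoglutarate in mitochondria (chromosome 16, 46884362 to 46931289), joined the lowest KDM2B fold of the 9 to the second highest MYC fold. Its KDM2B peak had a fold of 2.76 and a −log10 q of 3.51, and 92.3% of genes with KDM2B at a start had as high a fold or higher. Its MYC fold was 25.2, reached by 10.5% of genes. The MYC and KDM2B summits were 648 bp apart, with both peaks at the lower end of the record. H3K4me3 there had a fold of 46.2, and H3K27ac stood in 2 peaks with folds of 23.0 and 13.1. H2AK119ub stood in 12 small peaks with folds up to 2.80 over GPT2 and its upper flank, the nearest 1489 bp from an end of the record, and covered 6.19% of its window. H3K27me3 had 1 peak of fold 1.97, which reached only 10 bp into the lower flank.

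ASS1 and ASL, the pair that turns aspartate and citrulline into arginine, both had KDM2B, MYC, H3K4me3 and H3K27ac at their starts, and H2AK119ub was at the start of ASS1 and not of ASL. ASS1 (chromosome 9, 130444707 to 130501274, plus strand), which is silenced in many tumours that depend on outside arginine, had a KDM2B fold of 5.30, the second highest of the 9, reached by 14.6% of genes. Its MYC fold was 13.1 and its H3K4me3 fold 32.3, and 76.5% of genes with H3K4me3 at a start reached the H3K4me3 value. H3K27ac was weak, and its 1 peak in the window had a fold of 2.36, a −log10 q of 4.12 and a width of 427 bp. Of 12663 genes with H3K27ac at a start, 237 had a lower fold (1.87%). The H3K27ac cells carried an empty vector, and whether the parental cells have as little was not measured.

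H2AK119ub covered 41.9% of the ASS1 window in 36 peaks, with folds of 2.07 to 3.68. Inside the record it covered 28822 bp, or 51.0%. As much H2AK119ub or more was found at 11.3% of all genes, and at 8.51% of the 9177 genes with KDM2B, MYC, H3K4me3 and H3K27ac at a start. The mark covered the outer RefSeq start, at 130444707, and was interrupted at the inner one, at 130444961. A peak of 1379 bp ended at 130444746 and the next, of 4499 bp, began at 130445311, which left 564 bp without H2AK119ub, and the MYC summit at 130444905 lay in that gap. KDM2B spanned the gap and overlapped both H2AK119ub peaks, with its summit at 130445458 in the downstream one. H3K27me3 covered 1.94% of the same window in 5 peaks with folds up to 2.46, the nearest 5710 bp from a start. The inner promoter of ASS1 is shown because it held the only E-box of the MYC type, CACGTG (capitals), among the 11 promoters.

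ASS1, chr9:130444711-130445010, plus strand: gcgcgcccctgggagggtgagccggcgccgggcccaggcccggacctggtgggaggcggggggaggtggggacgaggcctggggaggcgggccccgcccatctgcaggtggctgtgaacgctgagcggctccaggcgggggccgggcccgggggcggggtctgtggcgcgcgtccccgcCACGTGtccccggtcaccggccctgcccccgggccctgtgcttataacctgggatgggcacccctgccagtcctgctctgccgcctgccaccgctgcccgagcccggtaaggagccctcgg

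The E-box begins 71 bp upstream of the start at 130444961. It occupies 130444890 to 130444895, which was 10 bp from the MYC summit and inside the gap in H2AK119ub. A CACGTG was present in 7.26% of RefSeq promoters. No match in the other promoters says only that these letters were not in those 300 bases.

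ASL (chromosome 7, 66075819 to 66093576, plus strand) had a KDM2B fold of 4.28, a MYC fold of 13.7, an H3K4me3 fold of 46.2 and an H3K27ac fold of 15.1 at its start. KDM2B and MYC summits were 6 bp apart, the closest of the 9 genes. ASL and ASS1 thus had similar MYC folds, while their H3K27ac folds were 15.1 and 2.36. H2AK119ub at ASL was limited to 7 peaks with folds up to 2.60 and a coverage of 6.27%, the nearest 2317 bp from the start, and H3K27me3 had no peak.

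**Figure D4:**
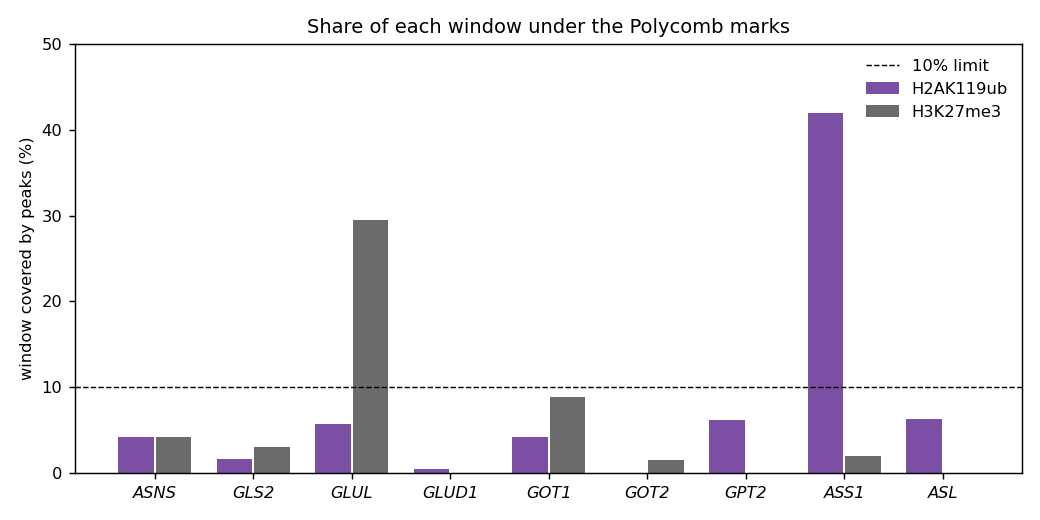
Share of each window covered by H2AK119ub and H3K27me3 peaks, in percent, for the 9 enzyme genes; the dashed line is the limit of 10%. ASS1 passes it for H2AK119ub at 41.9% and GLUL for H3K27me3 at 29.5%, and GOT1 lies under it for H3K27me3 at 8.90%.

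The median share of the window under H2AK119ub was 4.15% over the 9 genes and 2.36% over all genes, and for H3K27me3 it was 1.94% over the 9 genes and 0.0469% over all genes. At least 10% of the window was under H2AK119ub at ASS1 alone (34.5% of all genes) and under H3K27me3 at GLUL alone (28.2% of all genes). With H2AK119ub peaks merged across gaps of 3 kb, GLUL, GPT2 and ASL passed the same limit, and with the record alone no gene passed it for H3K27me3. The H3K27me3 next to GOT1 covered 8.90% of the window and lay entirely in the flank past the end of transcription, over CNNM1, where 5 H2AK119ub peaks stood too. Among the 9177 genes with KDM2B, MYC, H3K4me3 and H3K27ac at a start (45.9% of all genes), 29.9% had H2AK119ub at a start and 4.52% H3K27me3. The enzyme genes with those 4 numbered 8, of which GLUL and ASS1 had H2AK119ub and none had H3K27me3.

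The 12 KDM2B peaks in the windows were examined singly for what else they overlapped. All 12 overlapped MYC and all 12 overlapped H3K4me3, against 81.7% and 78.3% of the 19982 KDM2B peaks of the list, and 98.9% and 99.5% of the 11089 KDM2B peaks within 1 kb of any start. H3K27ac was overlapped by 9 of 12 (74.1% of all KDM2B peaks and 95.0% near starts), the exceptions being both peaks of GLS2 and the upper site of ASNS. H2AK119ub was overlapped by 4, at the upper ASNS site, GLS2, GLUL and ASS1 (33.3%, against 24.6% of all and 21.3% near starts). H3K27me3 was overlapped by the upper ASNS site alone (8.33%, against 4.91% and 2.74%). With at least 50% of the KDM2B peak covered, these counts were 2 for H2AK119ub and 0 for H3K27me3. With 12 peaks, 1 peak moves a share by 8.33 percentage points, and the shares are descriptions. The distance from a KDM2B summit to the nearest summit of an overlapping MYC peak was 6 to 765 bp with a median of 98 bp, against a median of 152 bp over 10967 such peaks near starts.

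The neighbouring enzymes and carriers of the pathway were 33 genes listed by function. KDM2B was in 25 of their windows (all genes 59.4%), MYC in 26 (78.7%) and H3K4me3 in 30 (82.6%). H3K27ac was in 26 (78.2%), H2AK119ub in 20 (68.0%) and H3K27me3 in 12 (50.1%). KDM2B was thus above the share of all genes and H3K27me3 below it, and the other targets were closer to theirs. The 33 genes were chosen by function, and the differences are descriptions that were not tested. At starts, 23 of the 33 had both KDM2B and MYC, where all genes had KDM2B at 47.8% and MYC at 64.1%, each counted alone. All 10 genes of the glutamine amidotransferase family had KDM2B, MYC, H3K4me3 and H3K27ac at a start (all genes 45.9%), with a median MYC fold of 23.7. All 6 genes of the malate-aspartate shuttle and the mitochondrial carriers had the same 4, with a median MYC fold of 23.0.

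The highest MYC folds at starts in the list were 76.1 at PPAT, which begins purine synthesis, 41.6 at the malate dehydrogenase gene MDH2, 39.6 at PFAS and 36.1 at ADSL, both of purine synthesis. The highest KDM2B folds were 9.38 at GFPT2, which makes glucosamine phosphate, 8.25 at NAGS, which activates the urea cycle, 7.51 at the glutamate decarboxylase gene GAD1 and 5.36 at the glutamate carrier gene SLC25A22. Counting the whole window, SLC25A11 also had a MYC fold of 45.4 and ASNSD1 a KDM2B fold of 5.79. None of the 9 enzyme genes passed the start MYC or KDM2B values except GLUL, whose KDM2B fold of 5.94 was above that of SLC25A22. Neighbouring genes were not examined for the pathway list, so its peaks may be shared with other genes.

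Some genes of the list lacked several targets. GLUD2 and ARG1 had no peak in any of the 6 lists. GAD2, ASPG, ASPA and DDO had neither KDM2B nor MYC in their windows but carried both Polycomb marks. H3K27me3 covered 94.3% of the window at GAD2, 83.6% at ASPA, 76.2% at ASPG and 19.3% at DDO. ABAT, which breaks down GABA, was the 1 gene with KDM2B (fold 3.53) and no MYC at a start. MYC without KDM2B in the window was found at ARG2 (MYC fold 9.08, at a start) and OTC (MYC fold 7.12, not at a start). GPT had MYC of fold 32.6 at a start and KDM2B only elsewhere in its window.

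**Figure D5:**
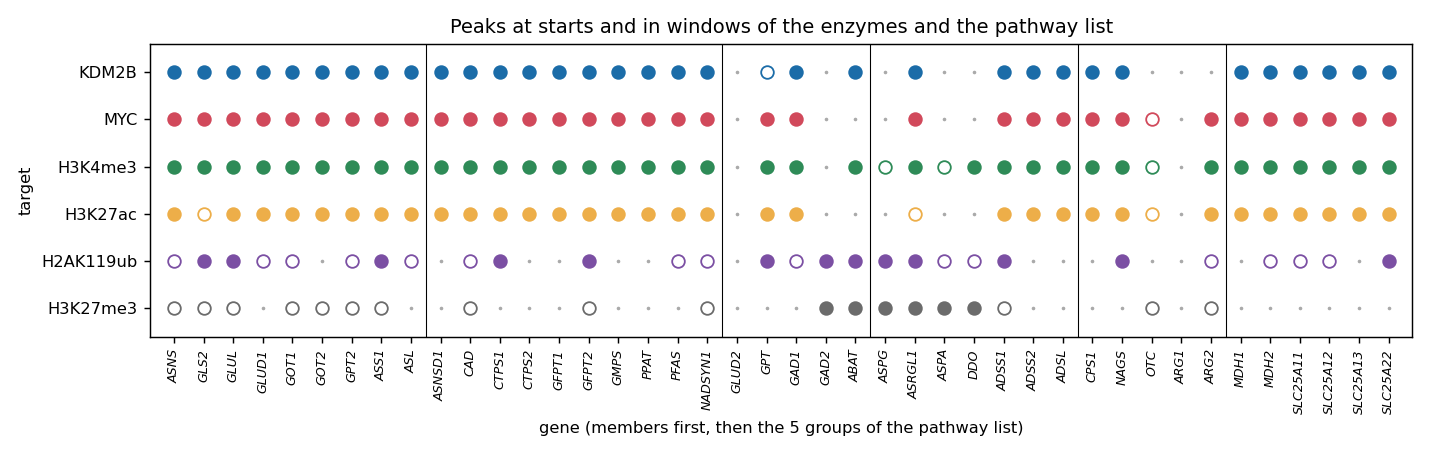
Presence of each target at the 9 enzyme genes and the 33 pathway genes, grouped as glutamine use, glutamate and alanine, aspartate and asparagine use, urea cycle, and shuttle and carriers (filled circle, peak within 1 kb of a start; open circle, peak elsewhere in the window; dot, no peak). The 9 enzyme genes have filled circles for KDM2B, MYC and H3K4me3 throughout, like the glutamine-using genes and the shuttle, and no filled circle for H3K27me3.

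Pathway genes were matched to the enzymes by the same presence in all 6 lists. Presence was counted in the window, whatever the fold, coverage or place of a peak. ASNS, GLS2, GLUL, GOT1, GPT2 and ASS1 had peaks in all 6, as did CAD, GFPT2, NADSYN1, ASRGL1 and ADSS1. A match in presence left room for other differences. ASRGL1 had H3K27me3 at a start (fold 6.3) and over 51.1% of its window, with no H3K27ac at a start. None of the 9 enzyme genes had H3K27me3 at a start. Some of the presence rested on flank peaks alone. H3K27me3 at GPT2 covered 10 bp, both Polycomb marks at GOT1 lay outside the record, and no H3K27ac peak touched the GLS2 record. GLUD1 and ASL lacked H3K27me3, as did CTPS1, PFAS, GPT, GAD1, NAGS, MDH2, SLC25A11, SLC25A12 and SLC25A22, a pattern found at 19.1% of all genes. GOT2, with H3K27me3 and no H2AK119ub, matched none of the 33 in all 6 lists, and 2.10% of all genes had its pattern. That pattern rested on 1 H3K27me3 peak of fold 2.49 in the upstream flank. The peak was lost with q under 1e-5 or with the gene record alone, so the mismatch depends on the setting.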

How the data were processed

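Trim Galore, MACS2 2.2.7.1, SAMtools 1.6, Bowtie2 2.4.5 and build hg38 are named per the submitters' processing notes, with no version of Trim Galore. Chromatin was digested enzymatically, per the labels' protocols, and libraries started from 5 ng of DNA for KDM2B, 1 ng for MYC and 50 ng for the histone marks of parental cells and the inputs. The control, any pooling and the filter on multiply mapped reads are not given in the sources used here. The deposited lists are narrow peaks, also for the broad marks, which can split a domain. Each peak has the authors' fold (a ratio to local background, taken at the summit), a score and a −log10 q value, the highest q-value being 0.0498 to 0.0500.

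Windows, overlaps of at least 1 bp, coverage and ranks were computed with Python 3.11.15, pandas 2.3.3 and NumPy 2.4.6, and the overlap counts were tested on simulated peaks. Starts are those of the RefSeq promoter table (250 bases before to 50 after), held for 15813 of 19974 genes; both ends of the record served for the others. Motifs were searched on both strands. No significance test was made, since lists do not resolve libraries. The members and gene lists were chosen with earlier results of these data known. Named genes are all members, their neighbours and, in the pathway list, the 4 highest folds of KDM2B and MYC (at a start or in the window) and genes with the same presence in all 6 lists as a member. GLUD2, ARG1, ABAT, ARG2, OTC, GAD2, ASPG, ASPA, DDO, VIM, CD44, ESR1 and PGR were named after their values were seen. A gene of the pathway list is not reported here.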

Additional observations from a re-analysis of the deposited data

How the results depend on the processing

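Counts of genes with KDM2B, MYC, H3K4me3 or H3K27ac stayed at 8 or 9 of 9 in each of the 7 alternatives run. KDM2B was lost at GPT2 with q under 1e-5 and at GOT1 with the gene record alone, and H3K27ac was lost at ASS1 with q under 1e-5 or with the 15000 peaks of highest fold. The Polycomb counts depended on the setting. H2AK119ub, at 8 of 9 genes, was at 3 within 1 kb of a start, at 4 with q under 1e-5 (ASNS, GLUL, GOT1 and ASS1) and at 2 with the 15000 peaks of highest fold (GLUL and ASS1). H3K27me3, at 7 genes, was at 3 with the gene record alone or 1 kb either side of it, at 3 with q under 1e-5 (ASNS, GLUL and GOT1), and at 0 within 1 kb of a start or with the 15000 peaks of highest fold. With the summit or at least 50% of the peak required in the window, H3K27me3 was at 6 genes, GPT2 being lost. KDM2B peaks on H2AK119ub numbered 2 in place of 4 with at least 50% of the KDM2B peak covered or with q under 1e-5 in both lists, and those on H3K27me3 numbered 0 in place of 1 under either setting. At least 10% of the window was under H2AK119ub at 4 genes after merging peaks across 3 kb (GLUL, GPT2, ASS1 and ASL) and at 2 with the gene record alone (ASS1 and ASL). Under H3K27me3 it was 0 genes with the gene record alone. Windows, thresholds and merging change these counts by construction. Shares of all genes are given for the main windows and for starts only, so the other settings have no background beside them.

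No paired analysis was possible because libraries are not separated in any deposited list. For the same reason leaving out each library in turn was not run. Peaks in shared start regions, as at GLUD1 and SHLD2, were not assigned to 1 gene, and the depth behind weak peaks is unknown.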

Other observations

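Acetylated sites away from the starts were present in the windows of several of the enzyme genes. In GLUD1, H3K27ac peaks with folds of 6.80 and 10.9 lay 10883 and 9729 bp downstream of the start by their summits, with H3K4me3 folds of 4.16 and 5.42 beside them and no KDM2B or MYC. Past the end of ASL, 24678 bp from its start, H3K27ac had a fold of 15.9, slightly above the 15.1 at the ASL start, with MYC of 6.32 and H3K4me3 of 19.3 and no KDM2B. Near the end of GOT1 an H3K27ac peak of 5921 bp, as wide as 3.93% of that list, had a fold of 14.9 and reached CNNM1, with MYC of 3.91 and no KDM2B. Below GLS2 and SPRYD4, 26093 bp from the GLS2 start, H3K27ac of fold 9.61 lay beside MYC of 6.21. All KDM2B peaks of the 9 windows except that at the upper ASNS site were within 1 kb of a start, which was 11 of 12, against 11089 of 19982 KDM2B peaks in the whole list. The 12 were taken from gene windows, whereas the whole list also holds peaks outside such windows, so these shares are not like for like.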
